A study of Rattus norvegicus with 18 samples.

Results

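Enzymes that conjugate foreign and endogenous compounds, and the carboxylesterases that hydrolyse esters, were followed along the rat colon. The members are the genes whose symbol marks them as a UDP-glucuronosyltransferase (UGT, without the lipid enzyme Ugt8), a cytosolic sulfotransferase (SULT), a glutathione S-transferase (GST), a membrane-bound glutathione transferase (MGST), an arylamine N-acetyltransferase (NAT) or a carboxylesterase (CES), where the array annotation gives a probe set exactly 1 symbol. The rule used no measured value. It found 52 genes on 57 probe sets, of 14217 genes that the array annotation names in this way. The 2 probe sets of the Ugt1a genes carry several symbols each, so no Ugt1a gene is a member.

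UGTs attach glucuronic acid, SULTs attach sulfate, NATs attach an acetyl group, and GSTs and MGSTs attach glutathione or use it to reduce peroxides. Carboxylesterases cleave esters and amides, and so expose groups that the transferases can then modify. In the colon these enzymes meet compounds from the lumen, from blood and from bile, and the conjugates leave the cell through ATP-driven pumps.

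The samples were 18 Affymetrix expression arrays of colonic mucosa from 9 male Sprague Dawley rats, each giving 1 proximal and 1 distal sample. The rats carry the numbers 1 to 8 and 10 in the labels. All of them had been on modified AIN-93G feed over 10 days, then got 15 mg per kg of azoxymethane, a colon carcinogen, by subcutaneous injection, and were killed 6 h later. The comparison is therefore between the ends of the colon after azoxymethane, with no untreated rat among the samples and no allocation group that the labels tie to a rat. In each region 4 cm of mucosa was scraped, so a sample holds every cell type that the slide removed. A lower signal in such a bulk sample can come from fewer cells of a type or from less RNA per cell, which cannot be told apart.

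The labelled tissue was checked first. Epcam, which marks epithelium, lay between 13.50 and 13.68 on the log2 scale on all 18 arrays. This shows epithelium on each array, and whether its share was equal between arrays was not tested. Of 9 epithelial markers, 2 (Krt20 and Vil1) had the higher signal in proximal colon and 0 in distal colon. The proximal array of rat 3 stood apart, with a smooth muscle marker level (mean log2 signal of 9 genes) of 12.40 against 7.22 to 9.01 on the other proximal arrays. The distal arrays of rats 3 and 7 had 10.16 and 10.09. Of the 9 smooth muscle markers, 0 were called between the regions by limma and 0 had an unadjusted p below 0.05. Their median difference, distal minus proximal, was -0.41, with SEs from 0.27 (Smtn) to 0.89 (Actg2).

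Values are quantile-normalized log2(signal + 16), and a fold on this scale understates the difference of a weak probe set. Of the 57 member probe sets, 39 (36 genes) passed the filter on low signal and 18 (16 genes) did not. A probe set is called where the adjusted p of the limma fit over all 21729 probe sets tested is below 0.05, and a call is distal or proximal after the region with the higher mean. Of the 39, 18 (46.2%) were called, where 26.5% of all probe sets tested were. Of these, 15 (38.5%), from 14 genes, were higher in proximal colon, where 12.2% of all probe sets tested were. The remaining 3 (7.69%) were distal calls, against 14.3% of all probe sets tested. With the deposited scaling in place of quantile normalization the members gave 2 distal calls (5.13%, against 3.63% of all probe sets tested) and 14 proximal calls (35.9%, against 12.1%). The lower distal share of the members thus depended on the scaling, and the higher proximal share did not. The distal share of all calls was 53.9% with quantile normalization and 23.0% with the deposited scaling. The median difference, distal minus proximal, was -0.22 over the 39 member probe sets and 0.03 over all those tested, the latter moving to -0.09 with the deposited scaling. The distal mean was the lower one for 31 of the 39 member probe sets and for 45.7% of all probe sets tested. The ranges of the regions did not overlap for 10 of the 39 (25.6%), where this held for 5.22% of all probe sets tested. Of the called probe sets, 13 were higher in proximal colon in 9 of 9 rats and 3 were higher in distal colon in 9 of 9 rats. The calls come from the same arrays, so these counts are a description and no further support. The share over all probe sets tested was not counted.

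**Figure D1:**
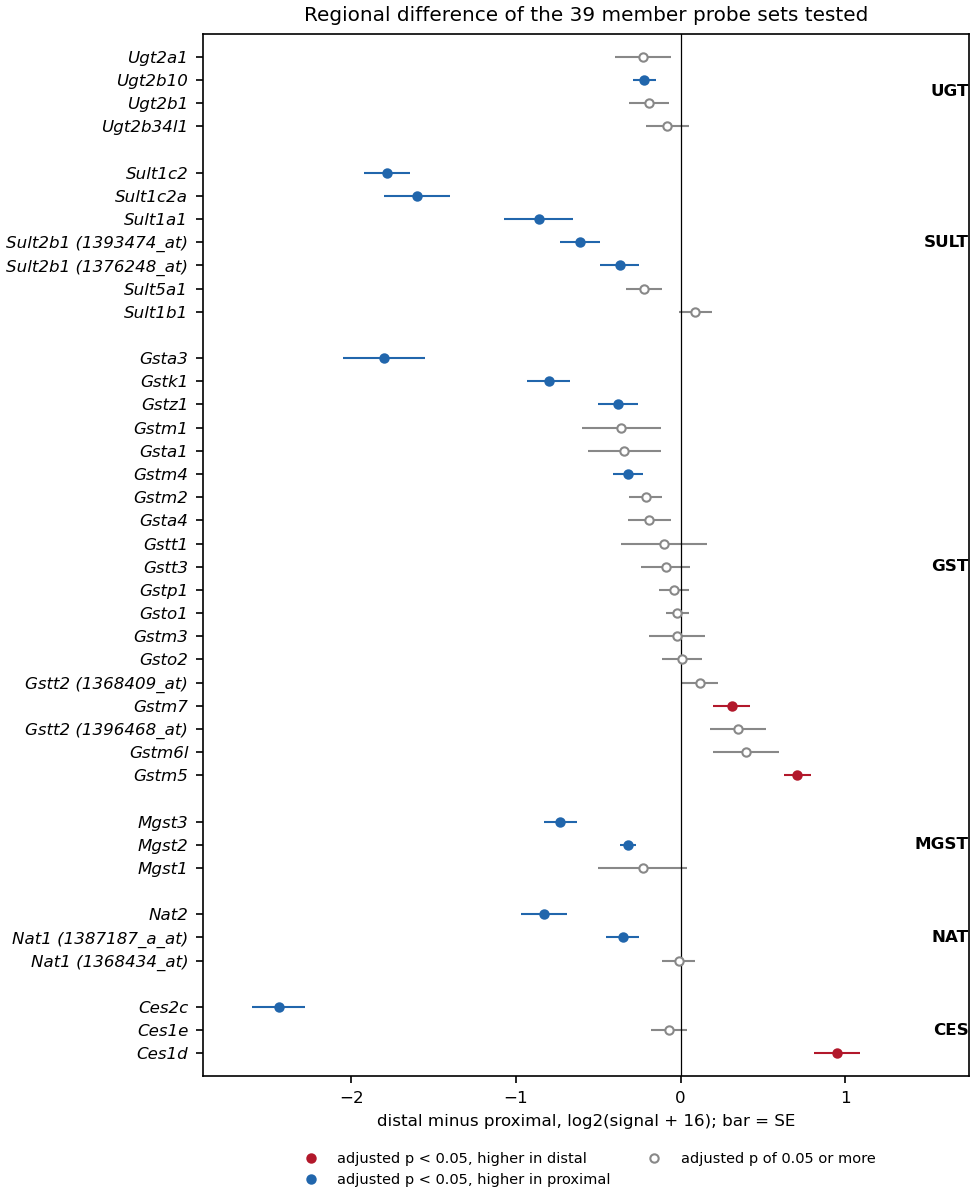
Difference between distal and proximal colon (x axis, log2(signal + 16), points with standard error) for the 39 member probe sets tested, grouped by enzyme family. Filled points are called, with 15 on the proximal side and 3 on the distal side, and the points run from -2.44 for Ces2c to 0.95 for Ces1d.

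The carboxylesterases held the farthest member on either side. Ces2c, an intestinal carboxylesterase, had a proximal signal of 8.51 in the lowest, 9.10 in the median and 9.90 in the highest rat, and a distal signal of 6.21, 6.73 and 7.10. Every proximal array lay above every distal array. The means were 9.13 ± 0.41 (SD, n = 9) and 6.69 ± 0.31 (SD, n = 9), a difference of -2.44 (SE 0.16, 5.43-fold, adjusted p = 1.26e-09, limma). The difference within a rat ran from -2.10 to -2.85, so all 9 rats showed it at a similar size.

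Ces1d, known in rodents for hydrolysing stored triacylglycerol, went the other way. Its proximal signal was 7.33, 7.90 and 8.55 in the lowest, median and highest rat, and its distal signal was 8.56, 8.79 and 9.22. The regions did not overlap, although the highest proximal array (rat 8) and the lowest distal array (rat 5) lay close together. Ces1d differed by 0.95 (SE 0.14, 1.93-fold higher in distal colon, adjusted p = 5.1e-05, limma, means 7.86 ± 0.41 and 8.81 ± 0.20, SD, n = 9 each). Ces1e, which the RefSeq table places beside Ces1d on chromosome 19, was not called (-0.07, adjusted p = 0.677). Both probe sets of Ces1c, the next gene in that row, and Ces5a were left out by the filter. The 3 carboxylesterase probe sets tested thus gave 1 distal and 1 proximal call, with a median difference of -0.07.

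The sulfotransferases gave calls for 5 of 7 probe sets tested (71.4%, against 26.5% of all probe sets tested), from 4 of 6 genes. This share counts Sult2b1 on both of its probe sets. It was near the 66.7% (2 of 3 probe sets each) of the membrane-bound transferases, the N-acetyltransferases and the carboxylesterases. Each call was for higher signal in proximal colon, and the family median was -0.61. Sult1c2 and Sult1c2a, near each other on chromosome 9, had the widest gaps, and cross-hybridization between their probe sets was not tested. Their promoter windows, 250 bases before to 50 bases after the annotated start, are printed because both genes were called in the same direction. They are from RefSeq on assembly GRCr8, 5′ to 3′ on the gene's own strand, at chr9:7436731-7437030 (plus strand) for Sult1c2 and chr9:7103153-7103452 (minus strand) for Sult1c2a. Capitals here and in the promoters printed further on would mark a motif searched, and these windows hold none of them.
Sult1c2: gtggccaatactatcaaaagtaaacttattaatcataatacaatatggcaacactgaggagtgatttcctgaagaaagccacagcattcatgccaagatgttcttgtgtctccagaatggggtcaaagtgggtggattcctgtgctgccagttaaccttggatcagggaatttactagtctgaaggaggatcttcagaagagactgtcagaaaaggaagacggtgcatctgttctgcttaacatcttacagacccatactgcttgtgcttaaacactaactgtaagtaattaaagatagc
Sult1c2a: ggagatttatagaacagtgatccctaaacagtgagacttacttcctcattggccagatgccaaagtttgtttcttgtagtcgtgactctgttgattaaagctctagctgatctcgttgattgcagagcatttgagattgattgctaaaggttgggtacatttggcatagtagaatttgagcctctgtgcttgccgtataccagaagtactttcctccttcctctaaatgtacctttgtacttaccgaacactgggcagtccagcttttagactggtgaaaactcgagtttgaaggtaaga
Over the 253 positions that could be aligned, 63.6% were identical, where the windows of Gsta3 and Sult1c2, which are unrelated genes, shared 59.4% of 261 positions.

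Sult1c2 had a proximal signal of 8.65, 9.0 and 9.39 in the lowest, median and highest rat and a distal signal of 6.49, 7.21 and 7.72. All proximal arrays were above all distal arrays. Its means of 8.99 ± 0.27 and 7.21 ± 0.34 (SD, n = 9 each) differed by -1.78 (SE 0.14, 3.43-fold, adjusted p = 1.13e-08, limma). Sult1c2a had 9.51, 9.97 and 10.48 in proximal colon and 7.58, 8.42 and 9.45 in distal colon. Its regions did not overlap either, but its distal arrays were more spread, with rat 4 the highest. The means of 9.99 ± 0.30 and 8.40 ± 0.59 (SD, n = 9 each) differed by -1.60 (SE 0.20, 3.03-fold, adjusted p = 6.54e-06, limma). Sult1c3, the third gene of this row, was left out by the filter.

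Sult1a1 sulfates simple phenols. Its proximal signal was 7.77, 8.05 and 9.66 in the lowest, median and highest rat, and its distal signal 6.73, 7.37 and 7.71. The regions did not overlap, by a narrow margin, and the highest proximal value came from rat 3, with the next at 8.28. The means of 8.20 ± 0.58 and 7.34 ± 0.35 (SD, n = 9 each) differed by -0.86 (SE 0.21, 1.82-fold, adjusted p = 0.0043, limma). Without rat 3 the difference was -0.73 (adjusted p = 0.000496), so the call did not rest on that rat. The array with its highest value was also the one with the highest smooth muscle marker level, whose part in that value was not tested.

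Sult2b1, which sulfates cholesterol and related steroids, was called on both of its probe sets. On the stronger-differing one (1393474_at) the proximal signal was 8.63, 9.36 and 9.64 and the distal signal 8.34, 8.67 and 8.92 in the lowest, median and highest rat. The regions overlapped, since the proximal value of rat 3 fell among the distal values. The means of 9.27 ± 0.34 and 8.66 ± 0.19 (SD, n = 9 each) differed by -0.61 (SE 0.12, 1.52-fold, adjusted p = 0.00106, limma). The other probe set (1376248_at) was 1.29-fold higher in proximal colon (8 of 9 rats). Its call was lost with median centring (adjusted p = 0.105, limma) and when any of rats 1, 2, 5, 7, 8 or 10 was left out (adjusted p from 0.0553 to 0.0794). Among the uncalled sulfotransferases, Sult5a1 had the largest difference (-0.22, adjusted p = 0.141). Sult1b1, which acts on phenols and thyroid hormones, was not called (0.09, adjusted p = 0.576). Sult1c3, Sult1d1, Sult1e1, Sult2a1, Sult2a2, Sult2a6, Sult4a1 and Sult6b2 were left out by the filter.

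**Figure D2:**
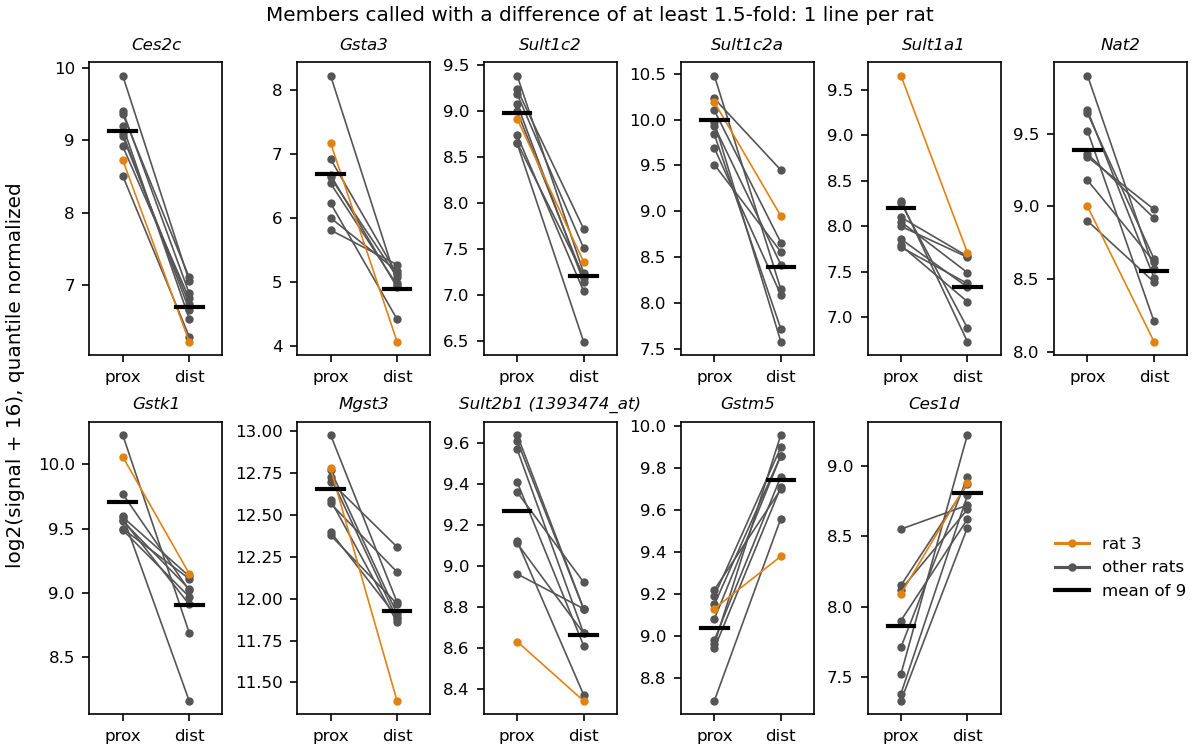
Signal in proximal and distal colon (y axis, log2(signal + 16), its range differing between panels) of the 11 called probe sets with a difference of at least 1.5-fold, with 1 line per rat and bars at the mean of 9 rats. Rat 3 is drawn in orange. The lines of 9 panels fall from proximal to distal in all 9 rats, and those of Gstm5 and Ces1d rise in all 9.

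The soluble and kappa-class glutathione S-transferases were the largest family, with 19 probe sets (18 genes) tested and 6 called (31.6%), a share near the 26.5% of all probe sets tested. The calls were 4 proximal (21.1%, against 12.2%) and 2 distal (10.5%, against 14.3%), and the family median was -0.09. The alpha class gave the widest contrast. Gsta3 and Gsta1 are neighbours on chromosome 9 with related promoters, and only Gsta3 was called. Their windows, at chr9:31154739-31155038 (plus strand, the first of 2 annotated starts of Gsta3) and chr9:31216483-31216782 (minus strand), are printed to show how alike they are. Capitals mark matches to the core of the antioxidant response element (TGACNNNGC, the site type bound by the oxidant-sensing factor that Nfe2l2 encodes) and to a short site of the factor HNF1 (GTTAAT, part of its full palindrome), each searched on both strands, so that a match on the other strand reads as its reverse complement.
Gsta3: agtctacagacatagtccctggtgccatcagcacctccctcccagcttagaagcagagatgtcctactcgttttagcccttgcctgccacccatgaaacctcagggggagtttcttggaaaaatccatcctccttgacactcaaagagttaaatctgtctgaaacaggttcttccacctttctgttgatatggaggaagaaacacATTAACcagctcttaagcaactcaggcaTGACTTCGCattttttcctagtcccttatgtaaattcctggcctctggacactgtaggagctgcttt
Gsta1: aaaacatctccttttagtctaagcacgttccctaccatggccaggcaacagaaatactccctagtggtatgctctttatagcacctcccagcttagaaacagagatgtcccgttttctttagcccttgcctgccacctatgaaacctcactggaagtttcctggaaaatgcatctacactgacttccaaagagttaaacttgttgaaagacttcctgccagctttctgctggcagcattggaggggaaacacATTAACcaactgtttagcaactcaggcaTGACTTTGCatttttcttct
The windows were 81.9% identical over 248 aligned positions. Each held 1 match to either motif, with 22 bases between them, at 45 and 17 bases before the start in Gsta3 and at 2 and 30 bases after it in Gsta1. A match to the antioxidant core is present in 12.1% of 33469 rat promoter windows and one to the short HNF1 site in 7.45%.

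Gsta3 had a proximal signal of 5.81, 6.63 and 8.22 in the lowest, median and highest rat and a distal signal of 4.07, 4.99 and 5.27. No distal array reached a proximal one, and rat 6 had by far the highest proximal value. The distal mean of 4.89 ± 0.39 (SD, n = 9) lay under the filter's level of 5.54, so Gsta3 passed the filter through its proximal arrays, whose mean was 6.69 ± 0.72 (SD, n = 9). The difference was -1.80 (SE 0.25, 3.48-fold, adjusted p = 2.57e-05, limma). Its size depended on the pseudocount and was -2.77 with 1 and -0.98 with 64, called each time. Gsta1 had 6.06, 6.75 and 8.24 in proximal and 5.99, 6.63 and 7.14 in distal colon. The regions overlapped nearly throughout, and rat 3 gave the highest value of each. Its difference of -0.34 was not called (SE 0.22, adjusted p = 0.29). Whether Gsta3 and Gsta1 differed from each other in their regional difference was not tested. Gsta4, which acts on products of lipid peroxidation, was not called (-0.19, adjusted p = 0.303), and Gsta3l1 was left out by the filter.

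Gstk1, the kappa-class enzyme of mitochondria and peroxisomes, had 9.49, 9.59 and 10.23 in proximal colon and 8.16, 9.02 and 9.15 in distal colon in the lowest, median and highest rat. The regions did not overlap, with rat 5 well below the other distal arrays. The means of 9.71 ± 0.26 and 8.91 ± 0.31 (SD, n = 9 each) differed by -0.80 (SE 0.13, 1.74-fold, adjusted p = 9.77e-05, limma). Gstz1, the maleylacetoacetate isomerase of tyrosine breakdown, was 1.30-fold higher in proximal colon in 9 of 9 rats, and without rat 5 its call was lost (adjusted p = 0.0528).

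The mu-class genes lie in a row on chromosome 2, with other protein-coding genes between Gstm7 and Gstm3, and differed among themselves. In the RefSeq gene order the differences were 0.71 for Gstm5, 0.40 for Gstm6l, 0.31 for Gstm7, -0.02 for Gstm3, -0.21 for Gstm2, -0.36 for Gstm1 and -0.32 for Gstm4. The sign thus turned once along the row, at Gstm3, which stood at 0.00 with median centring and at -0.14 with the deposited scaling, and the other 6 kept their sign with either. Only Gstm5, Gstm7 and Gstm4 were called. The order is a description of 7 probe sets, and was not tested. Mu-class transcripts are similar in sequence, and cross-hybridization between their probe sets was not tested.

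**Figure D3:**
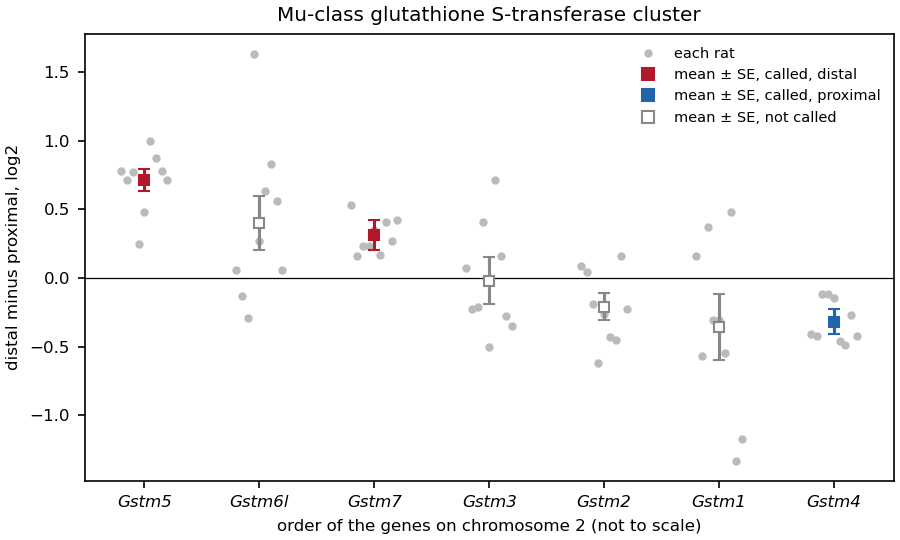
Difference between distal and proximal colon (y axis, log2(signal + 16)) of the 7 mu-class genes in their order on chromosome 2 (x axis, not to scale), with a grey point per rat and a square at the mean with its standard error. The means fall from 0.71 at Gstm5 to -0.36 at Gstm1, and the rats of Gstm6l and Gstm1 are widely spread.

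Gstm5 and Gstm7 were the called members of this class with higher distal signal. Their promoter windows, at chr2:198219519-198219818 (plus strand) and chr2:198260270-198260569 (minus strand), are printed because both hold the antioxidant core, in capitals as above. Capitals in Gstm5 also mark the core of the xenobiotic response element (GCGTG, the site type bound by the aryl hydrocarbon receptor).
Gstm5: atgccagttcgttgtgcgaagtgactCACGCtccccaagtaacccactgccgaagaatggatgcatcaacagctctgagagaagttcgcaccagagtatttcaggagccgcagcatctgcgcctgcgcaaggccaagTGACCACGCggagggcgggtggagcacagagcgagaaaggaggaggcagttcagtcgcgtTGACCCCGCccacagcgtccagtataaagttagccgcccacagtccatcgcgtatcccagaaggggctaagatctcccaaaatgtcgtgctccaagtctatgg
Gstm7: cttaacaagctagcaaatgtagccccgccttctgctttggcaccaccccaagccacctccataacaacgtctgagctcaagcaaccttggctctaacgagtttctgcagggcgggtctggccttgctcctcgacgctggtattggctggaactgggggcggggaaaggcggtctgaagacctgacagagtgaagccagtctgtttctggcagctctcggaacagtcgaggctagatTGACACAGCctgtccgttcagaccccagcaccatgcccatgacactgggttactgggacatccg
Gstm5 held 2 antioxidant cores, at 113 and 53 bases before the start, and 2 xenobiotic cores, at 224 and 109 bases before it, one of which overlaps the first antioxidant core. Gstm7 held 1 antioxidant core, at 14 bases before the start. Identity was 60.5% over 261 aligned positions.

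Gstm5 had a proximal signal of 8.69, 9.08 and 9.22 in the lowest, median and highest rat and a distal signal of 9.38, 9.76 and 9.96. Every distal array was above every proximal array. The means of 9.04 ± 0.16 and 9.74 ± 0.18 (SD, n = 9 each) differed by 0.71 (SE 0.08, 1.63-fold higher in distal colon, adjusted p = 2.53e-06, limma). Gstm7 was 1.24-fold higher in distal colon in 9 of 9 rats, but with an adjusted p of 0.0437 (limma, region only). This rose to 0.349 with the deposited scaling and to between 0.0567 and 0.0952 when any of rats 1, 2, 3, 4, 5, 6 or 8 was left out. With rat as a block, the limma fit that uses the pairing, it was 0.00204. Gstm4 was 1.25-fold higher in proximal colon in 9 of 9 rats, and with median centring its call was lost (adjusted p = 0.0539). Gstm6l, uncalled, had the largest difference of the uncalled members (0.40, SE 0.20, adjusted p = 0.143, higher in distal colon in 7 of 9 rats). Its proximal value in rat 3, 5.69, was the lowest of the region, and without rat 3 its difference was 0.25. Gstm1, also uncalled, had the widest distal spread of the tested members (SD 0.68, n = 9), from 7.77 in rat 8 to 9.96 in rat 1.

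The theta, pi and omega classes gave 0 calls by limma among 7 probe sets, where 26.5% of all probe sets tested were called. Among the 7, 0 had an unadjusted p below 0.05. Gstt2 was 0.12 and 0.35 on its 2 probe sets (SE 0.11 and 0.17, adjusted p = 0.446 and 0.146). Gstt1 was -0.10 (SE 0.26) and Gstt3 was -0.09 (SE 0.15). Gstp1, abundant in many epithelia, was -0.04 (SE 0.09, adjusted p = 0.802), and Gsto1 and Gsto2, which reduce dehydroascorbate, were -0.02 and 0.01. Gstp3 was left out by the filter.

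Of the membrane-bound transferases, 2 of 3 were called, both higher in proximal colon. Mgst3, which has transferase and peroxidase activity, had 12.38, 12.70 and 12.98 in proximal colon and 11.39, 11.91 and 12.31 in distal colon in the lowest, median and highest rat. The regions did not overlap, and the lowest distal value was that of rat 3. The means of 12.66 ± 0.19 and 11.93 ± 0.25 (SD, n = 9 each) differed by -0.73 (SE 0.10, 1.66-fold, adjusted p = 1.2e-05, limma). Mgst2, which can form leukotriene C4, had a small difference (-0.32, 1.25-fold) with a small error (SE 0.05, adjusted p = 9.44e-05, limma). It had no overlap, with proximal arrays from 11.51 to 11.74 and distal arrays from 11.09 to 11.48, and the smallest proximal SD of the tested members (0.08, n = 9). Mgst1 was not called (-0.23, SE 0.27, adjusted p = 0.577).

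Nat2, which acetylates arylamines, had 8.90, 9.36 and 9.90 in proximal colon and 8.07, 8.57 and 8.98 in distal colon in the lowest, median and highest rat. The regions overlapped at their edges, yet the proximal value was the higher one in 9 of 9 rats. The means of 9.39 ± 0.33 and 8.55 ± 0.29 (SD, n = 9 each) differed by -0.83 (SE 0.14, 1.78-fold, adjusted p = 0.000132, limma). The probe sets of its neighbour Nat1 disagreed. One (1387187_a_at) was 1.27-fold higher in proximal colon in 8 of 9 rats (adjusted p = 0.017), a call lost with the deposited scaling (adjusted p = 0.0723), with median centring (0.126) and without rat 8 (0.0559). The other (1368434_at) was -0.01 (adjusted p = 0.946).

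Of 9 glucuronosyltransferase probe sets, 4 were tested and 1 was called (25.0%, a share near the 26.5% of all probe sets tested). The call was for Ugt2b10, which was 1.17-fold higher in proximal colon in 9 of 9 rats (adjusted p = 0.0164, and 0.164 with median centring). The family median was -0.20. Ugt2a1 had the largest uncalled difference (-0.23, adjusted p = 0.358), followed by Ugt2b1 (-0.19, adjusted p = 0.26). Ugt2b34l1 was -0.08 (adjusted p = 0.67), with rat 3 far below the other proximal arrays, and was called only without the proximal arrays of rats 3 and 6 (-0.22, adjusted p = 0.0469). Both probe sets of Ugt2b, and Ugt2b15, Ugt2b35 and Ugt2b7, were left out by the filter.

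The left-out members had mean log2 signals from 4.18 to 5.44, and the highest single array among them was 7.00 (Sult4a1, proximal colon). Tested with no filter, 0 of the 18 probe sets were called by limma, and 1 had an unadjusted p below 0.05 (Ugt2b7, 0.49, adjusted p = 0.0535).

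Among all the member promoters, 46 windows of 43 genes, the antioxidant core was found in 6 (13.0%), against 12.1% of all windows. The xenobiotic core was found in 11 (23.9%), against 29.7%, the short HNF1 site in 7 (15.2%), against 7.45%, and TTTATG, a sequence of the type bound by the intestinal factors of the CDX group, in 7 (15.2%), against 12.7%. The antioxidant core was present in 2 of 3 windows of members called higher in distal colon (Gstm5, Gstm7) and in 2 of 12 of those called higher in proximal colon (Gsta3, Gstz1). In the same windows, the xenobiotic core was present in 2 of 3 and 4 of 12, and the short HNF1 site in 0 of 3 and 3 of 12. TTTATG was present in 0 of these 15 windows. These counts are descriptions, with no test.

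Genes of cofactor supply, conjugate removal, efflux and regulation, and other conjugating transferases, were counted in the same fit, with 50 tested in 5 lists. They gave 7 distal calls (14.0%, against 14.3% of all probe sets tested) and 16 proximal calls (32.0%, against 12.2%), and with the deposited scaling 2 distal and 15 proximal calls. For the supply of cofactors, the 12 genes gave 3 distal and 5 proximal calls (median -0.01). Slc35b3 and Slc35b2 had 1.92 and 1.39 times the distal signal in proximal colon. They carry the sulfate donor into the Golgi, and so not to the member SULTs, which are cytosolic. Papss2, which makes that donor, was 1.78-fold higher in distal colon. Gclm, the modifier subunit of the enzyme that starts glutathione synthesis, was 1.29-fold higher in proximal colon. The catalytic subunit Gclc was 1.4-fold higher in distal colon (adjusted p = 0.0403), but the call was lost with the deposited scaling (0.234), median centring (0.0694) and no filter (0.0519), and without any of rats 2, 3, 4, 5, 6 or 7 (0.0564 to 0.0808). Omitting the 3 arrays highest in smooth muscle markers (0.0586), or rats 3 and 6 from the proximal group alone (0.0947), ended it too. With rat as a block, the limma fit that uses the pairing, the adjusted p of Gclc was 0.000384. Slc3a2, of the cystine carrier, was 1.23-fold higher in distal colon (adjusted p = 0.0099, and 0.421 with the deposited scaling).

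For the removal of conjugates and the mercapturate steps, the 11 genes gave 2 distal and 2 proximal calls (median 0.14). Dpep1, the membrane dipeptidase that cleaves cysteinylglycine conjugates, was 19.3-fold higher in proximal colon (-4.27, SE 0.26, adjusted p = 4.52e-10, limma), a wider gap than that of any member. Ggt1, which removes the glutamyl group before that step, was 1.36-fold higher in proximal colon. Gusb, the lysosomal glucuronidase, was 1.22-fold and Arsa, a sulfatase, 1.18-fold higher in distal colon, and neither was called with the deposited scaling (adjusted p = 0.285 and 0.431).

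For the efflux pumps, the 7 genes gave 1 distal and 3 proximal calls (median -0.33). The pumps Abcb1a and Abcg2 had a 3.18-fold and a 2.91-fold higher proximal signal (adjusted p = 6.72e-06 and 8.87e-07, limma), and Abcc6 was 1.65-fold higher there. Abcc1, which exports glutathione conjugates, was 1.44-fold higher in distal colon in 8 of 9 rats. The 4 other conjugating transferases gave 0 distal calls and 1 proximal call (median 0.04), for As3mt, the arsenic methyltransferase, at 1.80-fold.

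For the regulators, the 16 genes gave 1 distal and 5 proximal calls (median -0.16). The nuclear receptors Pparg and Nr1h4 (the bile acid receptor) had a 2.47-fold and a 1.95-fold higher proximal signal, and the homeobox gene Cdx2 a 1.55-fold higher one. Hnf4a was 1.28-fold higher in distal colon (adjusted p = 0.00119, and 0.258 with the deposited scaling and 0.055 with median centring). Nfe2l2 and Ahr, named here for the motifs above and chosen after their values were seen, were 1.36-fold higher in proximal colon (adjusted p = 8.14e-06) and uncalled (-0.15, adjusted p = 0.538).

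Some markers of epithelial cell types also differed by region. Of all probe sets tested, 12.2% were proximal calls and 14.3% distal calls. The 7 absorptive colonocyte genes gave 5 proximal calls and 1 distal call. The mean level of the list ran from 10.91 to 11.69 in proximal and from 9.94 to 10.67 in distal colon, with no overlap. Its widest differences were those of Tmigd1 (-3.08) and Car1 (-2.49), with the rest from -0.90 (Car4) to 0.84 (Guca2b). The 7 goblet cell genes gave 3 proximal calls and 1 distal call, with levels from 12.29 to 12.77 and from 11.48 to 12.07. Spink4 (-2.83) and Zg16 (-1.87) had by far the widest differences of this list, and the rest ran from -0.20 (Muc2) to 0.41 (Tff3). The 4 enteroendocrine genes gave 4 proximal calls, with levels from 9.05 to 10.29 and from 7.30 to 8.63. Their part in the members' differences was not tested. The fibroblast list gave 0 calls by limma among 6 genes and the T cell list 0 among 4, with 0 unadjusted p below 0.05 in either. Each fibroblast gene was still higher in proximal colon in 7 of 9 rats (median difference -0.79, SEs from 0.54 to 0.73). On each of the B and plasma cell and the mast cell lists, 1 of 5 genes was a proximal call. The lists for enteric neurons and glia and for hepatocytes gave 0 of 2 and 2 of 5 calls. The hepatocyte calls ran in opposite directions, with Alb 1.85-fold higher in distal colon (4.92 to 7.78 over all arrays) and Serpina1 1.42-fold higher in proximal colon (4.43 to 6.39). Apoa1, on the same list and also made by intestinal epithelium, ran from 6.90 to 10.98 and was not called (-1.11, adjusted p = 0.124).

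**Figure D4:**
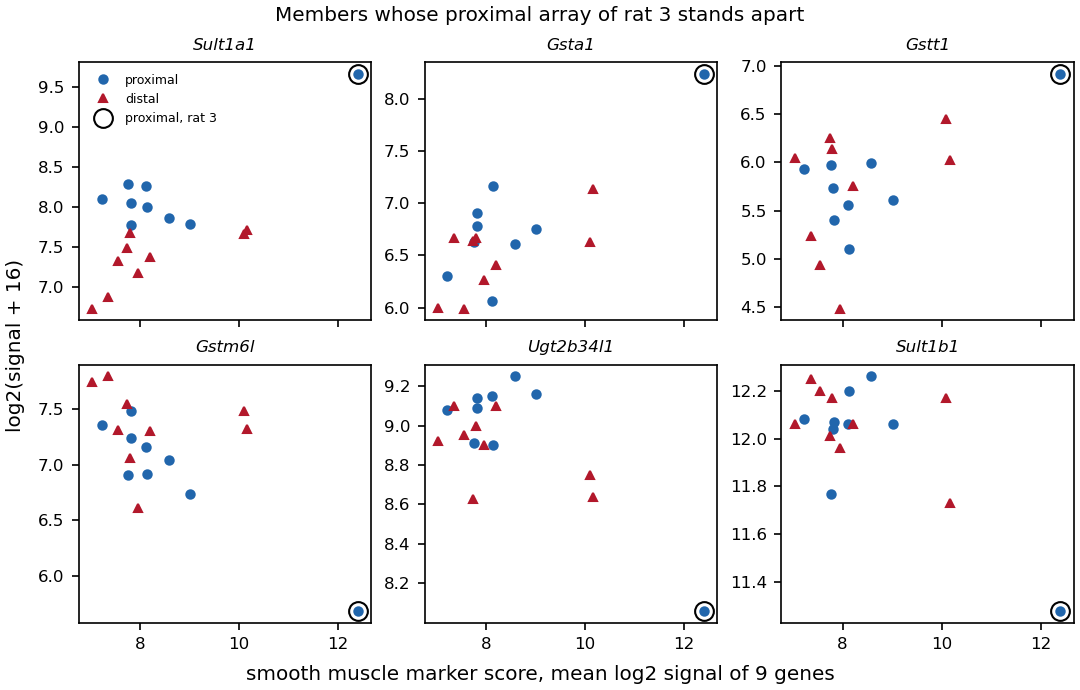
Signal of 6 of the 7 members whose proximal array of rat 3 stood apart from the region's other arrays (y axis, log2(signal + 16)) against the smooth muscle marker level of the array (x axis, mean log2 signal of 9 genes), for 18 arrays. The circled array of rat 3, at 12.40 on the x axis, is the highest for Sult1a1, Gsta1 and Gstt1 and the lowest for Gstm6l, Ugt2b34l1 and Sult1b1.

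Sult1a1, Gsta1 and Gstt1 were highest on the proximal array of rat 3, and Gstm6l, Ugt2b34l1 and Sult1b1 were lowest there. These genes were picked because that array stood apart, so the plot cannot show whether the smooth muscle level had a part, which was not tested. Without the proximal and distal arrays of rat 3 and the distal array of rat 7, the 3 with the highest smooth muscle level, the members again gave 3 distal and 15 proximal calls.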

How the data were processed

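RNA of scraped mucosa was measured on 18 arrays, 9 per region. The authors deposited 1 linear intensity per probe set and array, and the submitters' processing notes name MAS5. Neither its version nor a scaling target is given in the sources used here. Arrays of this kind give no read depth, and their number limits the precision. The trimmed mean intensity (2% at each end) ran from 210.3 to 341.2 between arrays, so quantile normalization was added to log2(intensity + 16). No 2 arrays shared more than 0.00644% identical values. The table holds 31099 probe sets, of which 57 are controls. The lowest 30% by mean (log2 below 5.54) were left out and 21729 tested with limma 3.58.1 in R 4.3.3 (lmFit, eBayes with an intensity trend, region only, all 18 arrays, two-sided, Benjamini-Hochberg over all tested). Standard errors are limma's moderated ones. The fit was tested on simulated data.

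The numbers pair the regions of a rat, since the labels give both samples the same animal number. Deviations of the paired arrays correlated at r between 0.000945 and 0.569, with a median of 0.226 and 6 of 9 rats above 0.1. The main fit, with region only, did not use this pairing and treated the samples of a rat as independent. The fit with rat as a block, which uses it, was an alternative, beside scaling, pseudocount, filter, trend and left-out arrays. Those other alternatives were also fitted with region only.

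Symbols came from the array annotation, which can be old: 20826 probe sets had 1 symbol, 436 several and 9780 were unnamed here. Left out as members were 2 Ugt8 probe sets and 5 probe sets with several symbols that include these families. Of the 52 member genes, 51 matched a protein-coding RefSeq entry on GRCr8, with 0 symbols changed, and Sult1e1 did not. Motifs were searched in RefSeq promoter windows with Python 3.11.15, and windows were aligned with Biopython 1.88. Members, lists and tests were chosen with earlier results of these data known. Full values are given for called members of at least 1.5-fold, a fold or difference for the other called members and the largest uncalled member of each family, and for up to 3 called genes per direction of each companion list (each gene by its probe set of highest mean); other uncalled members are given briefly.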

Additional observations from a re-analysis of the deposited data

Results flagged for a closer look

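Of the 78 sets of 9 arrays formed by 39 member probe sets in each region, 10 held an array far from the others by Dixon's criterion, which chance alone reaches in about 1 in 20 sets. In 7 of the 10 that array was the proximal one of rat 3. It was the highest proximal array for Sult1a1 (9.66, next 8.28), Gsta1 (8.24, next 7.17) and Gstt1 (6.92, next 5.99). It was the lowest for Ugt2b34l1 (8.06, next 8.90), Gstm6l (5.69, next 6.74), Sult1b1 (11.28, next 11.77) and Sult2b1 on probe set 1376248_at (8.57, next 9.13). This array also had the highest smooth muscle marker level (12.40) and the lowest median correlation with the other arrays of its region (0.9345), and the part of either in these values was not tested.

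The other 3 were lowest distal arrays, for Mgst3 in rat 3 (11.39, next 11.86), Gstk1 in rat 5 (8.16, next 8.69) and Ces1e in rat 4 (7.78, next 8.26). Without the rat concerned, Mgst3 differed by -0.65, Gstk1 by -0.72 and Ces1e by -0.02, and the first and second of these were still called.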

How the results depend on the processing

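The members' main counts were 3 distal and 15 proximal calls. Across 19 alternative settings 12 of the 18 called probe sets kept their call in each that tested them, 0 changed sign, and 1 uncalled probe set (Ugt2b34l1) was called in any. The deposited scaling gave 2 and 14, median centring 3 and 11, no filter 2 and 15, and leaving out the lowest 50% gave 3 and 14 of 33 tested, with Gsta3 not among them. The fit with rat as a replicate block changed no member's call (3 and 15, with 32.5% of all probe sets called), and the counts were also 3 and 15 with pseudocounts of 1 and 64, with no intensity trend and without the 3 arrays highest in smooth muscle markers. Without the proximal arrays of rats 3 and 6 the counts were 2 and 16. Leaving out each rat in turn gave 2 to 3 distal and 13 to 15 proximal calls. The companion genes gave 7 distal and 16 proximal calls, with the deposited scaling 2 and 15, and without each rat in turn 6 to 7 and 16 to 17. Weak signal limits Gsta3 in distal colon and the 18 probe sets left out.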
